A study of Mus musculus with 2 samples.

Results

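Kupffer cells are the macrophages that live in the sinusoids of the liver. Before birth they and other fetal macrophages surround maturing erythroblasts, engulf expelled nuclei and dying cells, and recycle the iron of hemoglobin. Monocytes and neutrophil precursors form next to them in the fetal liver, and the sinusoidal endothelium around them is itself an endocytic, scavenging cell layer that shares some receptors with macrophages. The values below follow 10 genes of Kupffer cell and macrophage identity, C1qa, C1qb, C1qc, Cd5l, Timd4, Vsig4, Adgre1, Cd163, Mrc1 and Fcgr1, out of the 27998 genes of the deposited tables. They were chosen by name, and each was found once by its symbol.

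The data are droplet-based scRNA-seq of the liver of a wild-type mouse embryo at E12.5, of strain C57BL/6 in the labels and C57BL/6J in the methods. In this assay each captured RNA molecule is marked by a unique molecular identifier (UMI), so that molecules and not reads are counted. The methods describe 1 liver, from which sorted living single cells were run as 2 technical replicate libraries, whereas the design text of the series speaks of 2 suspensions. With 1 liver and 1 condition no test was possible, and every interval below (95%, exact Poisson for levels and Clopper-Pearson for shares of cells) covers counting error only. The cell names are those of the deposited table. Its cluster of monocytes and Kupffer cells (Mo/KC) held 56 cells in library 1 and 58 in library 2, and its endothelial cells (ECs) numbered 20 and 26. The study used Fcgr1 to name the Mo/KC cluster, so the level of Fcgr1 there is a description and supports nothing. The same holds for all genes of these cells, because the clusters were built from them.

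Levels are UMIs of a gene per 1000000 UMIs (CPM) of all cells of a type in 1 library. Summed over the Mo/KC cells there were 678685 UMIs in the first library and 885398 in the second. The fewest UMIs in a kept cell were 504 in library 1 and 4387 in library 2. Of the cell barcodes, 31 were kept in both libraries, and 0 of these were Mo/KC cells in both. RNA that floats free in the suspension was measured in barcodes with 1 to 50 UMIs. Differences in summed levels can come from the number of cells that hold a gene or from the molecules per cell, so both are given.

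The 3 C1q genes lie side by side in the mouse genome (build GRCm38) on the minus strand of chromosome 4, in the order C1qb (136880129-136886187), C1qc (136889804-136893065) and C1qa (136895917-136898803), together spanning 18.7 kb. Cd5l (87357881-87371073, plus strand) and Fcgr1 (96282909-96293969, minus strand) are on chromosome 3, Mrc1 (14229392-14332057, plus strand) on chromosome 2 and Timd4 (46810800-46844332, plus strand) on chromosome 11. Adgre1 (57358691-57483527, plus strand) is on chromosome 17, Cd163 (124304656-124330527, plus strand) on chromosome 6 and Vsig4 (96247203-96293438, minus strand) on chromosome X. All 10 are protein-coding genes. RefSeq promoters (GRCm38.p6, from 250 bases before to 50 bases after the start, 300 bases) were matched for 8 members.

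Of these, 4 are shown because the results turn on them: a pair of neighbouring C1q genes found in the same cells, Mrc1, found in ECs as well, and Fcgr1, found throughout the Mo/KC cluster. Capitals mark GAGGAA, a core bound by PU.1 and other ETS factors, or its reverse TTCCTC, and TGCTGA, a MAF half-site, or its reverse TCAGCA. The motifs can overlap by the letters GA, but no matches overlap in these 4.
C1qb (chr4:136886151-136886450, minus strand): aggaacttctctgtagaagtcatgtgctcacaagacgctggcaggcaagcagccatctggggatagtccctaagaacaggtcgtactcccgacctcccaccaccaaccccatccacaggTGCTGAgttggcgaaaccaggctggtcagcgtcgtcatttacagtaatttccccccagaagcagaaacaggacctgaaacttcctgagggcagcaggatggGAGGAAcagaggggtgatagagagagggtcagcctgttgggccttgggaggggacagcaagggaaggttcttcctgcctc
C1qc (chr4:136892865-136893164, minus strand): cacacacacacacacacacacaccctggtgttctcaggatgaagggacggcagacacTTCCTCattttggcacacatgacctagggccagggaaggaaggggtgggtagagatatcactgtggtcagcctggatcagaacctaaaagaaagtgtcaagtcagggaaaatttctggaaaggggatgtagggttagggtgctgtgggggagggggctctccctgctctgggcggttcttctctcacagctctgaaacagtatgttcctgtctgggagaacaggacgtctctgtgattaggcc
Mrc1 (chr2:14229164-14229463, plus strand): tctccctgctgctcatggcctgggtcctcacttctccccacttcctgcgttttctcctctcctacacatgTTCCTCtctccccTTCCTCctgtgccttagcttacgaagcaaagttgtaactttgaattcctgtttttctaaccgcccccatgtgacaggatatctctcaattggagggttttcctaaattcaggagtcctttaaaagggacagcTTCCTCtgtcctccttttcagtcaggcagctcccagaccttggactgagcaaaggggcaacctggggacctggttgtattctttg
Fcgr1 (chr3:96293920-96294219, minus strand): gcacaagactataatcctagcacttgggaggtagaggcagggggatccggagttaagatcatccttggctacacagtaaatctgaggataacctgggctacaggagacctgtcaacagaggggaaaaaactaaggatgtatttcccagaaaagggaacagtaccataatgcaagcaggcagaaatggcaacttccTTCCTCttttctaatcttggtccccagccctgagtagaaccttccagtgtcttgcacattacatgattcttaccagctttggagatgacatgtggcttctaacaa

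The PU.1 core was found in the promoters of 6 of the 8 matched members, C1qb, C1qc, Cd5l, Vsig4, Mrc1 and Fcgr1. It occurs in 28.3% of all 32851 RefSeq promoters of this length. The Mrc1 promoter held 3 matches and the C1qb, C1qc and Fcgr1 promoters 1 each. The MAF half-site was found in 4 of 8, C1qb, Cd5l, Timd4 and Vsig4, against 19.5% of all promoters. The AP-1 motif TGACTCA, searched on both strands too, was in 0 of 8 and in 5.20% of all. Such matches are a description of letters and not of binding.

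The 3 C1q genes, which encode the chains of the complement recognition protein C1q, were read from a minority of Mo/KC cells at high numbers. C1qb had 688 UMIs in 26 of 56 Mo/KC cells of library 1 (1014 CPM, 939 to 1092) and 507 UMIs in 23 of 58 cells of library 2 (573 CPM, 524 to 625). C1qc had 540 UMIs in 27 cells (796 CPM, 730 to 866) and 333 UMIs in 19 cells (376 CPM, 337 to 419). C1qa had 395 UMIs in 23 cells (582 CPM, 526 to 642) and 259 UMIs in 17 cells (293 CPM, 258 to 330). All 3 were thus lower in library 2, with intervals that do not overlap. A few cells carried much of these sums, as the 3 leading cells held 41.4% to 48.1% of the UMIs of each gene in library 1 and 47.3% to 53.7% in library 2. The highest number in a single cell was 120 UMIs, of C1qc.

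Cd5l and Timd4, products of tissue macrophages, were found in fewer cells. Cd5l, a secreted scavenger receptor relative, had 22 UMIs in 6 cells of library 1 (32.4 CPM, 20.3 to 49.1) and 76 UMIs in 10 cells of library 2 (85.8 CPM, 67.6 to 107). It was the only member whose Mo/KC level was higher in library 2 with separate intervals. Of the 22 UMIs in library 1, 19 were in 3 cells. Timd4, a receptor for phosphatidylserine on dying cells, differed little between the libraries, with 64 UMIs in 12 cells (94.3 CPM, 72.6 to 120) and 79 UMIs in 13 cells (89.2 CPM, 70.6 to 111).

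Adgre1, which encodes the macrophage antigen F4/80, and Fcgr1, the high-affinity receptor for IgG, were the members found in most cells. Adgre1 had 113 UMIs in 39 of 56 Mo/KC cells (166 CPM, 137 to 200) and 81 UMIs in 31 of 58 (91.5 CPM, 72.7 to 114). Fcgr1 had 155 UMIs in 42 cells (228 CPM, 194 to 267) and 123 UMIs in 49 cells (139 CPM, 115 to 166). Both were spread over many cells with few UMIs each, and the 3 leading cells held 21.3% to 25.9% of their UMIs. After exact thinning of every cell to 3600 UMIs, which leaves out 10 shallow cells of library 1, Fcgr1 was expected in 51.2% and 39.9% of Mo/KC cells and Adgre1 in 39.9% and 26.4%.

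Mrc1, the mannose receptor, was rare in Mo/KC cells. It had 16 UMIs in 7 cells of library 1 (23.6 CPM, 13.5 to 38.3) and 7 UMIs in 4 cells of library 2 (7.91 CPM, 3.18 to 16.3). Vsig4, a complement receptor of mature Kupffer cells, had 1 UMI in 1 Mo/KC cell of library 1 and 0 in library 2. There the exact interval for 0 of 58 cells allows UMI-positive cells to make up as much as 6.16%. This is no limit on cells that express it. Cd163, the receptor for hemoglobin bound to haptoglobin, had 0 UMIs in every cell type and in the free RNA of both libraries. In Mo/KC cells, the exact interval for 0 UMIs reaches up to 5.44 CPM in library 1 and 4.17 CPM in library 2. Whether Vsig4 and Cd163 are made below these limits was not detectable at this depth.

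**Figure D1:**
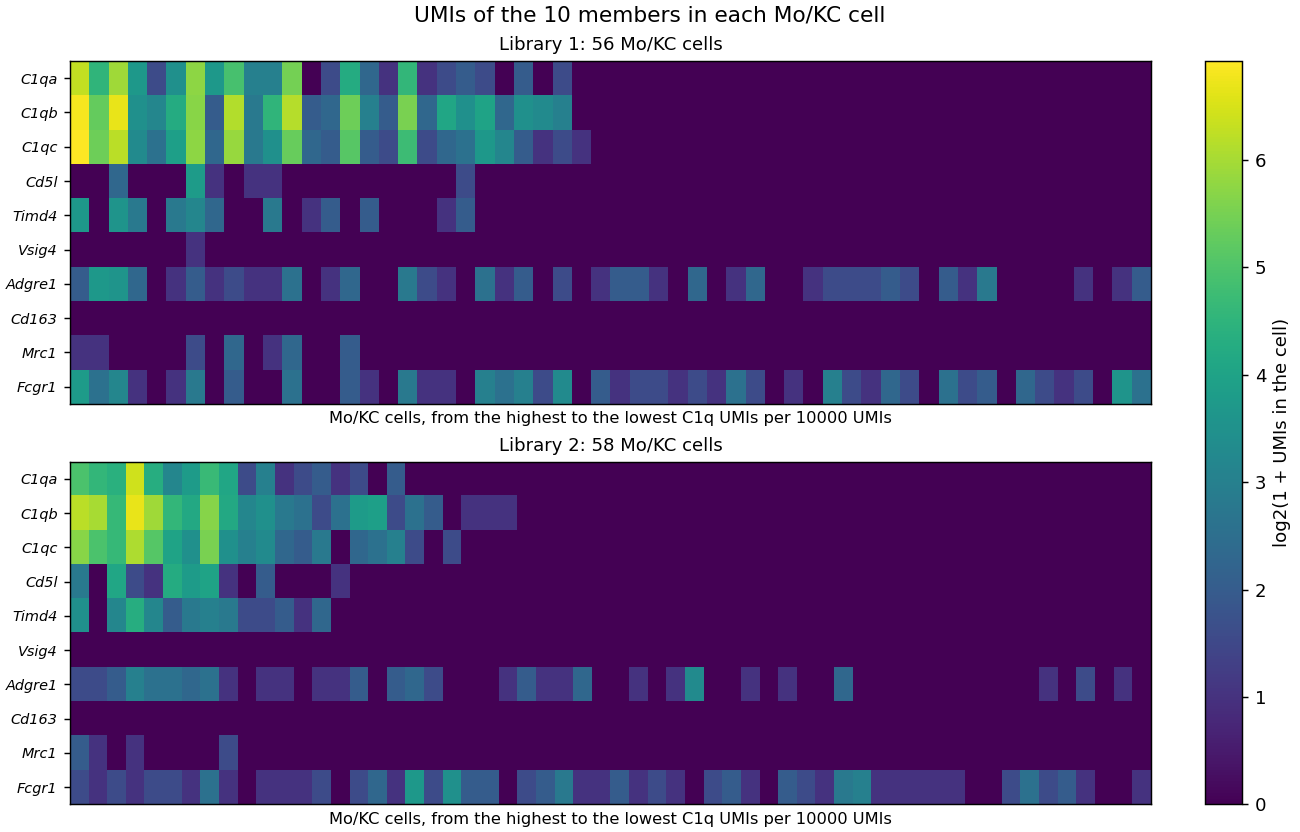
UMIs of each of the 10 members (rows) in each Mo/KC cell (columns) of library 1 (56 cells, top) and library 2 (58 cells, bottom), as log2(1 + UMIs), with cells ordered from the highest to the lowest share of C1q UMIs. The C1q genes, Cd5l, Timd4 and Mrc1 fill the left side, whereas Fcgr1 and Adgre1 run across the whole cluster and Cd163 is empty.

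Against all other kept cells of the same library, the level in Mo/KC cells was at least 10-fold higher in each library for 7 of the 8 members with at least 10 UMIs in each library, namely all but Mrc1. Over all 12512 genes with that many UMIs the share was 7.46%. Cd5l (3 and 8 UMIs in the other cells of libraries 1 and 2) and Timd4 (3 and 4) passed this minimum only through Mo/KC cells. So did C1qa in library 2, with 7 UMIs elsewhere. These calls were fixed by the filter and support nothing. The ratios describe a cluster built on the same genes and are no test. They reached 515-fold (390 to 690) in library 1 and 2585-fold (1237 to 6493) in library 2 for C1qa, and 1612-fold (527 to 8024) and 1380-fold (518 to 5189) for Timd4. Mo/KC cells held 86.4% to 97.4% of all UMIs of the C1q genes in kept cells, 88.0% and 90.5% of those of Cd5l, 95.5% and 95.2% of those of Timd4, and 91.2% and 84.8% of those of Fcgr1.

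Adgre1 was less restricted to the cluster, with 66.1% and 74.3% of its UMIs in Mo/KC cells. Most of the rest lay in granulocytes (G), where it had 47 UMIs in 35 of 157 cells of library 1 (24.8 CPM, 18.3 to 33.0) and 23 UMIs in 19 of 130 cells of library 2 (12.1 CPM, 7.69 to 18.2). Free RNA held Adgre1 at 2.03 CPM (0.552 to 5.19) and 1.53 CPM (0.316 to 4.47), so the intervals of G were above it in both libraries. Fcgr1 was low in G, with 0 UMIs in library 1 and 7 UMIs in 4 cells of library 2 (3.69 CPM, 1.48 to 7.61), which overlaps the 2.55 CPM (0.828 to 5.95) of free RNA there. In hematopoietic stem and progenitor cells (HSPCs, spelled HPSC in the table) it had 8 UMIs in 7 of 213 cells and 8 UMIs in 7 of 208 cells, at 2.32 and 2.56 CPM. Mrc1, Timd4, Cd5l and Vsig4 had 0 UMIs in G, HSPCs, megakaryocytes and hepatoblasts of both libraries.

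**Figure D2:**
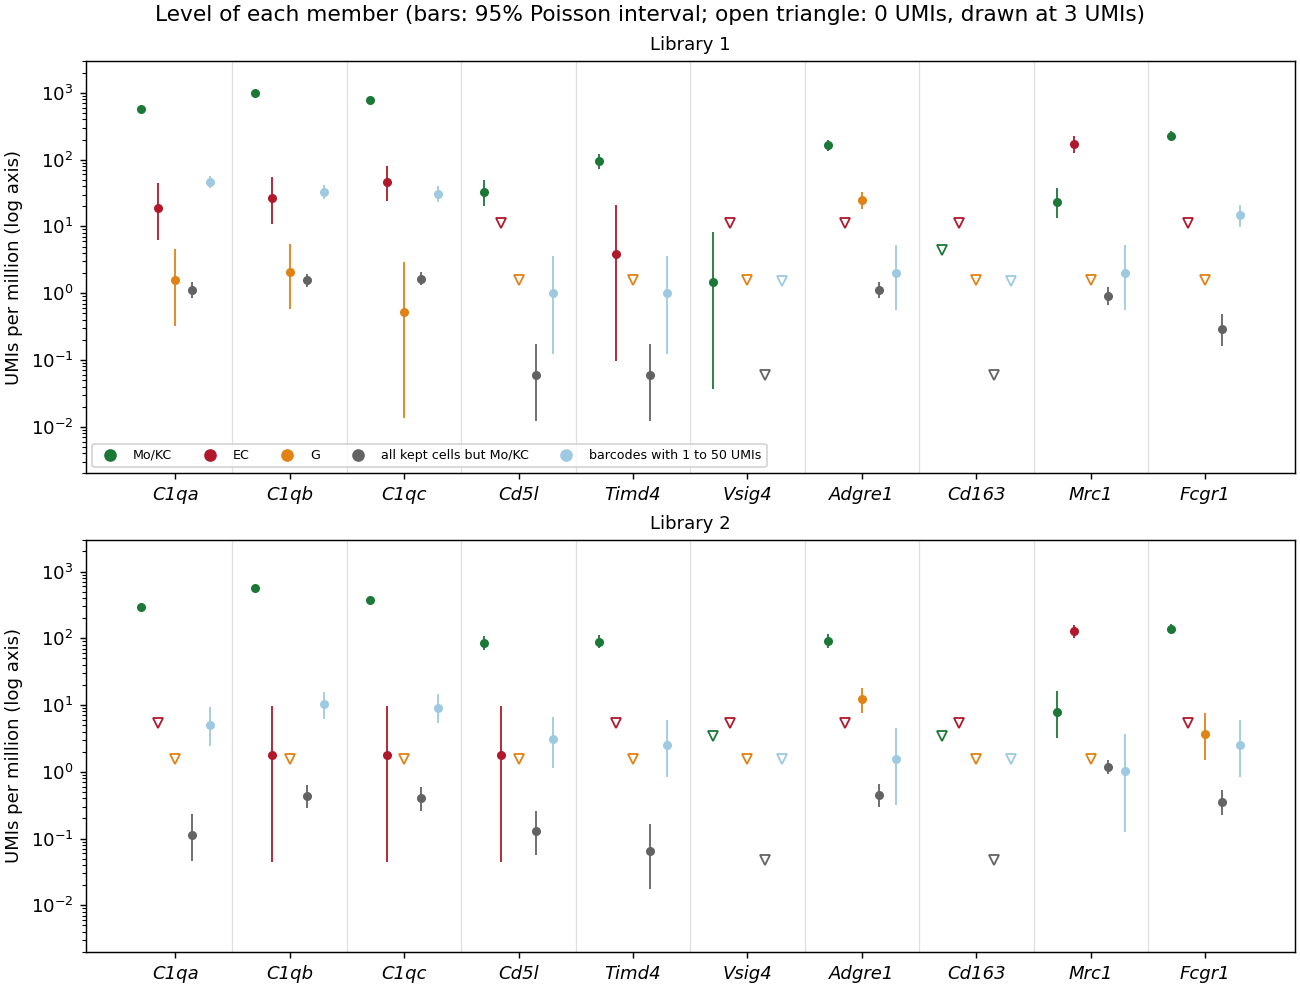
CPM (log axis) of each member in Mo/KC cells, ECs, G, all kept cells other than Mo/KC, and barcodes with 1 to 50 UMIs, for library 1 (top) and library 2 (bottom), with 95% Poisson intervals. Open triangles mark 0 UMIs and are drawn at the level of 3 UMIs. Mrc1 is the member with its highest level in ECs (172 and 127 CPM).

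Single Mo/KC cells fell into cells with many members and cells with few. Of the 114 cells, 68 held 0 to 2 of the 10 members, 36 held 5 or more and the most was 9. The mean was 3.27 members in library 1 and 2.86 in library 2, and at an equal depth of 3600 UMIs it was 2.19 and 1.86. The thinned mean of library 1 leaves out 10 shallow cells, all of which held C1q UMIs, so it also covers other cells. The cells were then sorted by C1q alone. All 3 C1q genes had a UMI in 39 cells (23 in library 1 and 16 in library 2), 1 or 2 of them in 12 cells (4 and 8), and none of them in 63 cells (29 and 34). All 36 cells with 5 or more members had all 3 C1q genes, to which the C1q genes themselves contribute 3. Among the 7 other members, a median of 3 was found in cells with all 3 C1q genes and 1 in cells with none, although the former were shallower. Cells with all 3 had a median of 8004 UMIs and those with none 15573. No cell without C1q held more than 2 of the 7 others.

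Cd5l, Timd4 and Mrc1 stayed within the C1q-positive cells. In cells with all 3 C1q genes, Timd4 reached 321 and 409 CPM in libraries 1 and 2, found in 24 of 39 cells, and Cd5l at 112 and 389 CPM, found in 15 cells. Both had 0 UMIs in the 63 cells without C1q, which makes Timd4 at least 48.7-fold and at least 74.5-fold higher, and Cd5l at least 17.0-fold and at least 70.7-fold higher, with 3 UMIs per group and library in place of 0. Mrc1 was at 81.4 and 36.3 CPM, found in 11 cells, and had 0 UMIs in the cells without C1q. With 3 UMIs in place of 0 it was 12.4-fold and 6.60-fold higher with C1q, with lower ends of 8.95 and 4.08. Every Mo/KC cell with Cd5l (16 of 16), Timd4 (25 of 25) or Mrc1 (11 of 11) also had C1qb.

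Within the 39 cells with all 3 C1q genes, nearly all cells with Cd5l had Timd4, and Timd4 was also found without Cd5l. Both were found in 14 cells, Cd5l alone in 1, Timd4 alone in 10 and neither in 14. In library 1 these counts were 5, 1, 6 and 11, and in library 2 they were 9, 0, 4 and 3. In library 1 Cd5l had 22 UMIs in these cells and Timd4 63, and the part of missed Cd5l molecules in shallow cells was not tested. Mrc1 was found in 6 cells with Timd4 and in 5 without it. The cells with Timd4 were the shallower ones, with a median of 6232 UMIs against 13112 in those without.

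Adgre1 and Fcgr1 crossed the border between these groups. Adgre1 was found in 33 of 39 cells with all 3 C1q genes and in 32 of 63 cells with none. Its level was 3.59-fold (2.42 to 5.37) higher with C1q in library 1, at 346 against 96.5 CPM, and 4.05-fold (2.49 to 6.69) in library 2, at 223 against 55.0 CPM. Fcgr1 was found in 31 of 39 and in 52 of 63 cells. It was 2.52-fold (1.80 to 3.53) higher with C1q in library 1, at 392 against 156 CPM, but at 130 against 117 CPM in library 2 (1.10-fold, 0.667 to 1.78), and the intervals of the 2 libraries do not overlap. Summed over the 7 members other than C1q, the level was 4.98-fold higher in library 1 and 6.89-fold higher in library 2.

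**Figure D3:**
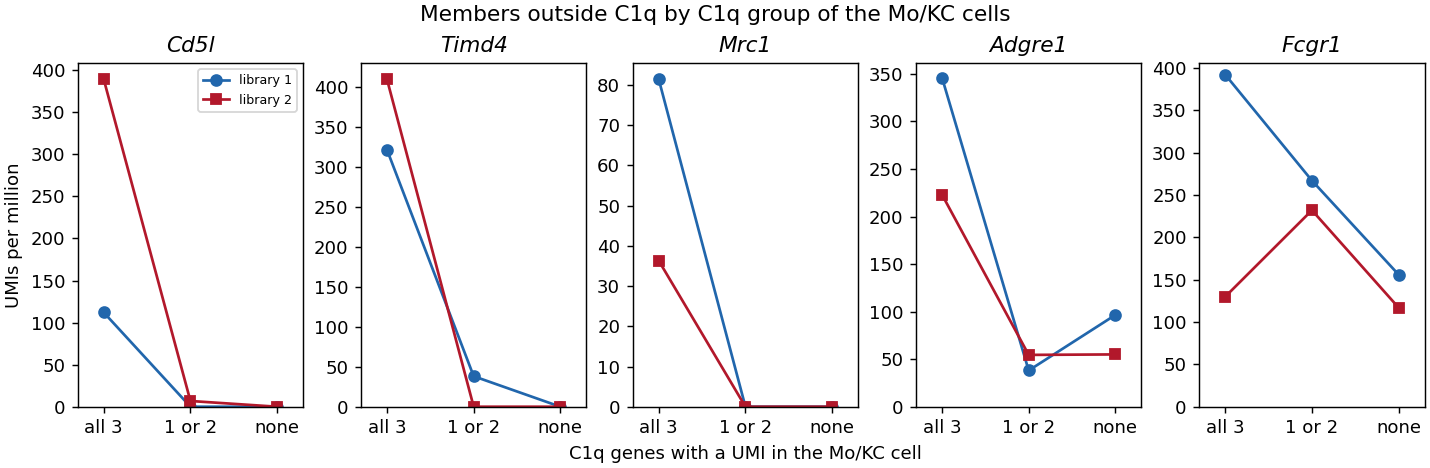
CPM of Cd5l, Timd4, Mrc1, Adgre1 and Fcgr1 in Mo/KC cells with all 3, with 1 or 2, and with none of the C1q genes, for library 1 (circles, 23, 4 and 29 cells) and library 2 (squares, 16, 8 and 34 cells). Cd5l, Timd4 and Mrc1 fall to 0 in cells without C1q, Adgre1 falls in both libraries, and Fcgr1 falls in library 1 (392, 267 and 156 CPM) and is highest in the middle group in library 2 (130, 232 and 117 CPM).

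Across single cells, the pairs of members followed the same division. Spearman's rho of UMIs per 10000 was computed for the 28 pairs of the 8 members with UMIs in both libraries, as a description over 56 and 58 cells that share their library and the depth in the denominator. The C1q pairs reached 0.88 to 0.97 in library 1 and 0.88 to 0.91 in library 2. Timd4 with C1qa was at 0.62 and 0.87, Cd5l with C1qa at 0.50 and 0.78, and Cd5l with Timd4 at 0.49 and 0.77. Over all 28 pairs the median was 0.40 in library 1 and 0.53 in library 2. The 7 pairs with Fcgr1 lay lower, with medians of 0.21 and 0.12, and Fcgr1 with Cd5l was at -0.19 and 0.12.

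A gene was taken as higher in cells with all 3 C1q genes where its CPM was at least 2-fold that of cells with none in each library. This was asked of 5698 genes with at least 10 UMIs in each library over all Mo/KC cells, those with 1 or 2 C1q genes included. Of these, 4.56% were higher and 5.23% were at most 0.5-fold, with a median log2 ratio of -0.11 in library 1 and 0.01 in library 2. A gene with 0 UMIs in 1 of the 2 groups compared passed the minimum only through the other or the cells with 1 or 2 C1q genes. It could be called in 1 direction only, so its direction was fixed by the filter and its call supports nothing. A gene that reached 10 UMIs in a library only through 1 of the 2 groups was likewise favoured in that direction by the filter. Among genes named below, this held in at least 1 library for Nr1h3, Klf4, C3ar1, C3, Ly6c2, Stab1, Pf4 and Hba-x. It also held for Slc40a1, Axl, Clec4n and the 5 G markers compared. Of the 7 members outside C1q, Vsig4, Cd163 and Mrc1 did not reach the minimum. Cd5l and Timd4 passed it only through the cells with C1q. The remaining pair had UMIs in both groups, of which Adgre1 was higher in each library and Fcgr1 passed in neither direction.

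Of 23 other macrophage and Kupffer cell genes 19 could be compared, of which 14 were higher and 1 lower in cells with all 3 C1q genes. Of the 14, Marco, Vcam1, Folr2 and Pltp had 0 UMIs in the cells without C1q of both libraries, so the filter fixed their direction. Slc40a1, Axl and Clec4n reached the minimum in library 1 only through the cells with all 3 C1q genes, which favoured that direction. The calls of these genes support nothing. Hmox1, which encodes the heme-degrading enzyme, was at 2346 against 39.5 CPM in the first library and 2250 against 14.7 CPM in the second. Ctsb, a lysosomal protease, was 6.01-fold and 7.10-fold higher, and Apoe, a lipid carrier protein, 19.9-fold and 7.49-fold. Lyz2, the myeloid lysozyme, was the lower one, at 1003 against 14198 CPM and 2991 against 10907 CPM. Csf1r, the receptor for the macrophage growth factor CSF1, Cx3cr1, a chemokine receptor, and Fcer1g and Tyrobp, signalling adaptors of myeloid receptors, passed in neither direction. Csf1r was at 667 against 263 CPM and 404 against 244 CPM.

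Of 12 macrophage regulators, 4 were higher and 1 lower, and those given here were named after their values were seen. Maf, a transcription factor, was at 153 against 11 CPM and 82.9 against 9.16 CPM. Nr1h3, the liver X receptor alpha, was at 260 and 249 CPM, with 2 UMIs in all cells without C1q (127-fold, 34.3 to 1066, over both libraries). Spic, a factor of iron-recycling macrophages, was at 71.3 and 93.3 CPM with 0 UMIs in the cells without C1q. Klf4, a factor of monocyte differentiation, was the lower one, at 10.2 against 85.5 CPM and 0 against 62.3 CPM. Nr1h3 and Spic reached the minimum only through the cells with all 3 C1q genes, and Klf4 only through those without C1q. The filter thus set their directions, and their calls support nothing. Spi1, which encodes PU.1, passed in neither direction, at 702 against 732 CPM and 461 against 718 CPM, and neither did Cebpb, Id3, Irf8, Zeb2 or Id1.

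Of 18 other complement genes, 5 could be compared. Cfp, the gene of properdin, and C3ar1 and C5ar1, receptors for complement fragments, were higher, and C3, the central component, was lower, at 0 against 54.8 CPM and 5.18 against 51.3 CPM. Cfp was at 468 against 164 CPM and 622 against 178 CPM.

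Some monocyte genes and the granule genes went the other way. Of 10 monocyte genes 5 could be compared and 4 were lower in cells with all 3 C1q genes. Plac8 was at 122 against 2476 CPM and 82.9 against 2095 CPM, and Ly6c2, the Ly6C antigen of inflammatory monocytes, was at 0 against 513 CPM and 5.18 against 513 CPM. Ccr2, the chemokine receptor of monocytes, was at 71.3 against 167 CPM and 57.0 against 147 CPM, and its 25 UMIs in cells with all 3 C1q genes were in 4 cells. F13a1, a coagulation factor chain, passed in neither direction, at 158 against 276 CPM and 57.0 against 170 CPM. Of the 8 G markers 5 could be compared and all 5 were lower, Mpo, Elane, Prtn3, S100a8 and S100a9, genes of granule enzymes and calprotectin. Summed over the 8, these markers were at 12851 and 17173 CPM in the Mo/KC cells without C1q, at 61.1 and 82.9 CPM in those with all 3, and at 56963 and 47582 CPM in G. Elane, Ctsg and Ly6g were at 0 in the cells with all 3 C1q genes. Ly6g was also at 0 in the cells without C1q, and Ctsg had 17 UMIs in 3 of those. The part of Mo/KC cells with granule genes in the levels of the members was not tested.

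Markers of other cells were also counted in both groups. Of the 6 EC markers, Cdh5 was at 86.5 and 82.9 CPM in cells with all 3 C1q genes and had 0 UMIs in cells with none, while Cldn5, Kdr, Tek and Esam had 0 UMIs in the former in both libraries. Of the 11 sinusoidal genes only Stab1, a scavenger receptor, could be compared and was higher, at 148 against 0 CPM and 88.1 against 3.67 CPM. Of the 3 megakaryocyte markers, Pf4 was higher, at 570 against 4.39 CPM and 238 against 11 CPM, and the sum of the 3 in megakaryocytes was 12678 and 12264 CPM. Of 2 markers of primitive erythroid cells Hba-x was higher and Hbb-y passed in neither direction. In library 1 the Hba-x call rests on 7 against 6 UMIs (2.71-fold, 0.779 to 9.75), and in library 2 on 22 against 6 (10.4-fold, 4.08 to 31.3). Hbb-y was at 351 against 296 CPM and 487 against 231 CPM. Of 3 HSPC markers Cd34 was lower. Of the 6 erythroid markers 5 could be compared and 0 passed in either direction. Their sum had medians of 9306 and 30048 CPM in single cells with all 3 C1q genes and 7059 and 8429 CPM without C1q. Single cells reached 26036 and 156876 CPM with all 3, and 115055 and 578951 CPM without. The part of erythroid RNA in such Mo/KC cells was not tested. No dendritic cell gene (of 5) and no hepatoblast marker (of 3) had enough UMIs. Of the 5 Mo/KC markers, Cd68 and Adgre1 were higher and Lyz2 lower.

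Genes most like the members were then sought without a list, by Spearman's rho with the summed members among 4678 genes found in at least 20% of Mo/KC cells of each library. They were chosen in library 1 and are given with their value in library 2, which the choice did not use. The median over all genes was -0.16 in library 1 and -0.03 in library 2. Leaving out the members, the 10 highest were Ctsd (0.81 in library 1 and 0.72 in library 2), Lgmn (0.81 and 0.73), Ftl1 (0.79 and 0.79), Ctsb (0.77 and 0.69), Fth1 (0.75 and 0.65), Slc40a1 (0.73 and 0.79), Hmox1 (0.71 and 0.73), Sepp1 (0.70 and 0.66), Aif1 (0.70 and 0.62) and Tmem37 (0.70 and 0.63). Ctsd, Ctsb and Lgmn encode lysosomal proteases, Ftl1 and Fth1 the ferritin chains and Slc40a1 the iron exporter ferroportin. All 10 were among the 50 highest of library 2.

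At the other end, Plac8 was lowest at -0.77 and -0.74. The others were Emb, Napsa, Lsp1, Sub1, Prtn3, Mrpl33, S100a11, Tspo and S100a10, and the 10 spanned -0.74 to -0.41 in library 2. For the members themselves, rho was taken with the sum of the other members, leaving out the gene itself. It was 0.75 to 0.86 for the C1q genes, 0.60 and 0.70 for Timd4, 0.52 and 0.48 for Adgre1, and 0.26 and 0.16 for Fcgr1. The sum is mostly C1q UMIs.

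Mrc1 was the member that ECs shared. It had 45 UMIs in 16 of 20 ECs of library 1 (172 CPM, 125 to 230) and 72 UMIs in 18 of 26 ECs of library 2 (127 CPM, 99.4 to 160). In free RNA it was at 2.03 CPM (0.552 to 5.19) and 1.02 CPM (0.124 to 3.69). The interval in ECs was above that of free RNA in each library for 1 of the 8 members that could be compared, Mrc1, and for 14.1% of all 12512 genes. In library 2 Mrc1 reached the minimum of 10 UMIs only through ECs, with 7 UMIs in Mo/KC cells and 1 in erythroblasts. Its call there supports nothing. Mrc1 was 7.28-fold (4.04 to 13.8) higher in ECs than in all Mo/KC cells together in library 1 and 16.1-fold (7.41 to 41.4) in library 2. The Mo/KC cells with all 3 C1q genes held all 23 Mrc1 UMIs of the cluster. In these cells Mrc1 was at 81.4 and 36.3 CPM, nearer to its level in ECs. After thinning to 3600 UMIs it was expected in 42.5% and 34.4% of ECs, and in 8.45% and 2.86% of Mo/KC cells. Only 25.4% and 8.75% of its UMIs in kept cells were in Mo/KC cells.

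The other members were near or at 0 in ECs. Adgre1, Fcgr1 and Vsig4 had 0 UMIs in all 46 ECs, for which the exact interval reaches up to 14.1 CPM in library 1 and 6.51 CPM in library 2. Cd5l had 1 UMI and Timd4 1 UMI. The C1q genes had 24 UMIs in ECs of library 1, of which 23 were in a single EC with 25466 UMIs that also held 5 UMIs of Mrc1, 1 of Timd4, 1 of Cd68 and 0 of Csf1r. In library 2 they had 2 UMIs. Of the 46 ECs, 42 had no UMI of C1q or Csf1r, and 30 of these 42 had Mrc1.

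The EC label was checked against endothelial genes. Of the 6 EC markers all were found in both libraries, with Cldn5 at 855 and 824 CPM, Esam at 508 and 510 CPM, Kdr at 343 and 369 CPM, Cdh5 at 397 and 309 CPM, Pecam1 at 221 and 155 CPM and Tek at 99.2 and 81.2 CPM. Of the 11 sinusoidal genes the 6 with the most UMIs were Lyve1 (1210 and 1067 CPM), Oit3 (946 and 635), Gpr182 (710 and 704), Plvap (645 and 524), Stab2 (515 and 371) and Stab1 (168 and 138). Fcgr2b and Clec4g, also on this list, had 0 UMIs in ECs of library 1, and in library 2 Fcgr2b was at 5.29 CPM in ECs against 23.7 CPM in Mo/KC cells and Clec4g at 22.9 against 2.26 CPM. Lyve1 and the stabilins are receptors for hyaluronan and other waste molecules. The 34 ECs with Mrc1 were deeper than the 12 without, with medians of 16408 and 8774 UMIs. Lyve1 was at 1124 CPM in the former and 1050 CPM in the latter, and Stab2 at 423 and 379 CPM. Of the 12 ECs without Mrc1, 12 had Cldn5 and 11 had Lyve1.

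Outside Mo/KC cells, C1q UMIs were few, and only some lay together in single cells. In library 1, 7 cells of other types or ECs held 5 or more C1q UMIs, 4 of them erythroid, and in library 2 there was 1, an HSPC with 9. The highest was an early erythroid cell (Ery) with 62 C1q UMIs among 39377 UMIs, which also held 3 UMIs of Csf1r and 1 of Fcgr1. Of the 105 C1q UMIs in the 932 Ery cells of library 1, 73 were in 3 cells. Among the 72 C1q UMIs of the 3820 erythroblasts of that library, 6 were in 1 cell, and in library 2 the 31 C1q UMIs of erythroblasts and the 13 of Ery cells had 0 in cells with 5 or more. Per the labels, doublets were sorted out before encapsulation, which cannot remove those that form in the droplets, and no doublet caller was run here. The part of pairs caught in 1 droplet was not tested.

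The make-up of C1q RNA differed between free RNA and cells in library 1. C1qa made up 24.3% (22.3 to 26.5) of the C1q UMIs in Mo/KC cells of library 1 and 23.6% (21.1 to 26.2) in library 2. In free RNA it made up 42.2% (35.6 to 49.1) of 218 C1q UMIs in library 1 and 20.8% (10.5 to 35.0) of 48 in library 2. The level of C1qa in free RNA was 46.6 CPM (37.6 to 57.2) against 5.10 CPM (2.45 to 9.38).

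The libraries also differed in the depth at which cells were kept. Of the 23 cells of library 1 with all 3 C1q genes, 10 had fewer UMIs than the 4387 of the shallowest kept cell of library 2, and of the 29 without C1q 0 did. Cells with all 3 made up 41.1% (28.1 to 55.0) of Mo/KC cells in library 1 and 27.6% (16.7 to 40.9) in library 2. Among cells of library 1 with at least 4387 UMIs they made up 29.5% of 44. With this minimum the C1q genes together were at 2163 CPM (2051 to 2278) in library 1, against 2391 CPM (2276 to 2511) without it and 1241 CPM (1169 to 1317) in library 2. The level summed over all members was 2657 CPM (2533 to 2785) in library 1 with the minimum, against 2938 CPM without it and 1655 CPM in library 2.

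**Figure D4:**
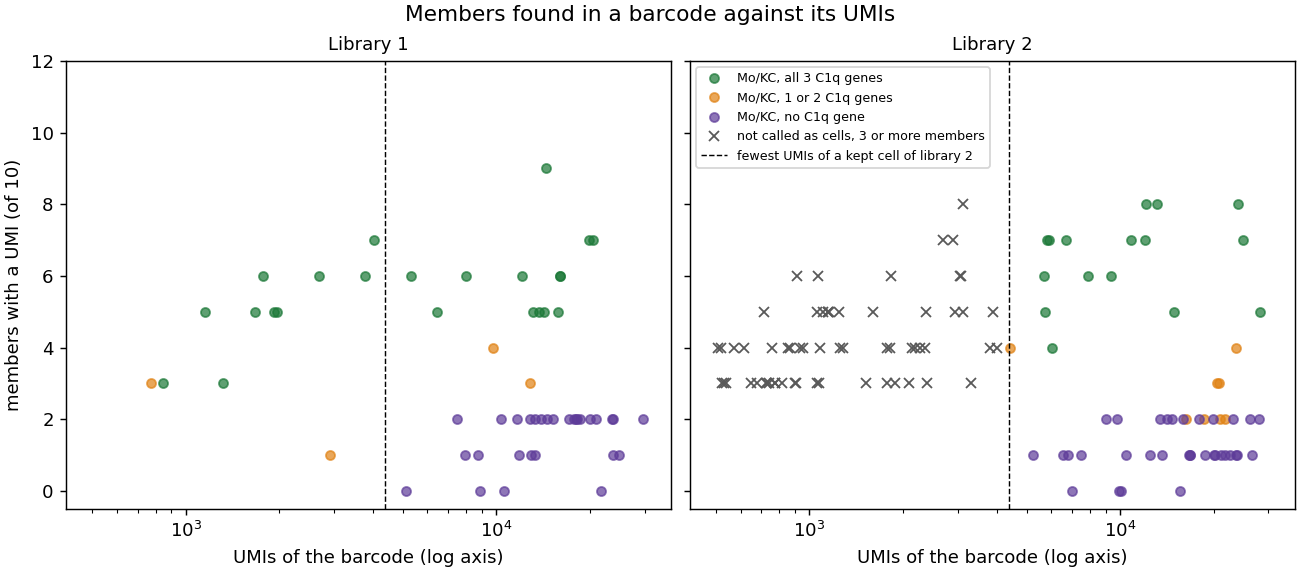
Number of members with a UMI against all UMIs (log axis) of each Mo/KC cell of library 1 (left) and library 2 (right), coloured by C1q group. Crosses are the 61 barcodes of library 2 that were not called as cells but held 3 or more members, and all lie left of the dashed line at 4387 UMIs, the fewest in a kept cell of library 2.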

How the data were processed

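The 10 members and all gene lists were chosen with earlier results of these data known. For each library the authors gave unnormalized counts of UMIs (all barcodes and those called as cells), together with a table of cell types. According to the submitters' processing notes they used bcl2fastq 2, Cell Ranger 2.1.1, Seurat 3.2.0 and mm10. The matrix header of library 1 names another software version. The methods state that cells with few genes were removed and that sorting removed doublets and dead cells. Library totals over kept cells were 51969226 and 62738015 UMIs (5480 and 5057 cells).

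From the deposited counts, UMIs were summed per cell type and library and given as CPM with exact 95% Poisson intervals, and shares of cells with Clopper-Pearson intervals, all for counting error only. A count of 0 was limited by 3 counts. Thinning to 3600 UMIs was computed exactly over all draws. Folds with 0 UMIs used 3 UMIs. Genes compared had at least 10 UMIs in each library. Free RNA came from barcodes with 1 to 50 UMIs. Named genes were all members, at most 6 per list with the most UMIs, the 10 genes with the highest and the 10 with the lowest rho in library 1, and those marked as named after their values were seen. Of some lists more genes were named, among them genes at 0 UMIs in a group or passing in neither direction, a choice made by their values. Intervals, thinning, fold calls and ranking were tested on simulated data. Apart from the thinning, the counts were drawn with Poisson or binomial error, and the group of high cells was placed at random. The simulation therefore does not cover the spread between cells or the difference in depth between the C1q groups. Python 3.11.15, numpy 2.4.6, scipy 1.17.1, pandas 2.3.3 and matplotlib 3.10.9 were used. Positions are from GENCODE vM21, promoters from RefSeq. Alternatives left out each library, changed cell filters, thinning, correlations, splits, free RNA and fold thresholds. No test between animals was possible. Some genes of the lists are counted in them but not reported here by name.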

Additional observations from a re-analysis of the deposited data

Results flagged for a closer look

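Barcodes of library 2 that were not called as cells held UMIs of the members above the limit that a count of 0 allows. Among 3461 such barcodes with 1000 UMIs or more there were 638 member UMIs (91.9 CPM, 84.9 to 99.3), and among 2797 with 500 to under 1000 UMIs there were 226 (112 CPM, 98.1 to 128). Free RNA of library 2 held the members at 35.2 CPM (27.4 to 44.5). In library 1, 169 barcodes with 1000 UMIs or more that were not called held 1 member UMI, and 72 with 500 to under 1000 UMIs held 0.

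The members lay together in few of these barcodes. In library 2, 37 barcodes with 1056 to 4025 UMIs held 3 or more members and 565 of the 638 UMIs, and 24 with 506 to 951 UMIs held 175 of the 226. The most members in 1 barcode was 8. Of the 37, 34 also held Hmox1, Slc40a1 or Marco, genes of heme breakdown, iron export and a scavenger receptor, and of the 24, 22 did. Csf1r was found in fewer, 17 of the 37 and 4 of the 24, and Cd68 in 10 and 5. Lyz2 was found in 24 and 13, and S100a8 in 3 and 0. How many of the other uncalled barcodes held these genes was not counted. All 61 held Hbb-bs, and 0 held Lyve1. Cd5l had 54 and 24 UMIs in the uncalled barcodes of the larger and smaller class, Timd4 32 and 10, Adgre1 29 and 9, Mrc1 12 and 2, and Fcgr1 25 and 0. Vsig4 and Cd163 had 0.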

How the results depend on the processing

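No paired analysis was possible because the series holds 1 condition and no test was made. Of 74 alternative values, 63 stayed within the spread of the libraries (1 SD of 2 values, a weak measure) and 11 did not. A value with 1 library left out is that of the other library, which itself sets the spread, so it could hardly leave it. Alternatives were chosen with results known, and the 8 that limit UMIs or leave out leading cells were added after the data were seen. The summed level of the members in Mo/KC cells, 2212 CPM, was 3227 CPM as a mean over cells, 1655 and 2938 CPM with each library alone, and 1415 CPM without the 3 cells of each library with the most C1q UMIs, a change of over 1.5 times. Members per cell at equal depth, 2.00, were 3.06 without thinning and 1.76 without these cells. The median rho over pairs, 0.489, was 0.331 in 1 draw of 3600 UMIs and 0.397 to 0.526 with a library left out. It covers 28 pairs, since Vsig4 and Cd163 lacked UMIs for the others. The ratio of the 7 other members between cells with and without C1q, 5.86, was 4.50 when cells were split at the median of C1q and 4.98 to 6.89 with a library left out. Mrc1 in ECs, 141 CPM, was 176 CPM with 20% of free RNA subtracted. Of 36 values for single members 32 stayed, and as a mean over cells Timd4 was at 201 CPM (91.4 CPM otherwise) and Cd5l at 108 CPM (62.7), both moved by over 1.5 times. The count of Mo/KC-high members was 8 in place of 7 at 5-fold or with libraries pooled.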
